A study of Danio rerio with 6 samples.

Results

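The Rh family ammonia channel genes were examined in whole zebrafish larvae at 72 hours post fertilization. The set comprised 5 genes, rhcga, rhcgb, rhcgl1, rhbg and rhag, picked by symbol from 37685 genes in the deposited table, with rows of 1 gene summed. All 5 passed the filter on low counts, and 22247 genes were tested in all. The set was chosen because rhcga was lower in the morpholino group, so the differences of its members between the groups are given as descriptions, with no p-value. The control group held 3 libraries of larvae of the wild-type AB strain. The other group held 3 libraries of AB larvae that had received, as 1-cell embryos, an injected morpholino whose name refers to GJB2, a gap junction gene in humans. Morpholinos are stable nucleic acid analogs used in zebrafish to keep a chosen transcript from being translated or spliced. The labels give no larvae injected with a control oligonucleotide, no number of larvae per library and no clutch, so the spread between libraries may be partly technical.

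Rh glycoproteins are membrane proteins that form trimers and conduct ammonia, and they are related to the ammonium transporters of bacteria and yeast. Fish excrete most of their waste nitrogen as ammonia, across the skin of the early larva and later across the gills. In zebrafish skin, a C-type channel marks the H+-ATPase-rich ionocyte, in which it sits in the apical membrane beside a proton pump and a sodium/proton exchanger, and the secreted acid traps ammonia outside as ammonium. RefSeq lists rhcg2b as an older name of rhcga, rhcg2a of rhcgl1 and rhcg of rhcgb, so which of these symbols stands for the channel described in those ionocytes was not settled here, and each value below belongs to the symbol of the table. In mammals RHAG is a red cell protein, RHBG lies in the basolateral membrane of kidney and liver cells, and RHCG lies mainly in the apical membrane of kidney collecting duct cells. In the pufferfish gill, Rhbg has been placed on the basolateral side of pavement cells and Rhag on pillar cells.

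Total counts ranged from 14582030 to 19743658 per library. The first principal component of log2 CPM held 35.6% of the variance, on which control libraries scored from -29.5 to -23.7 and morpholino libraries from 26.6 to 28.1. Of the genes tested, 1378 were called by edgeR's quasi-likelihood test at an adjusted p under 0.05, of which 737 were lower and 641 higher in the morpholino libraries. Markers of muscle, neurons, liver, skin, blood, lens, intestine and cartilage were all detected, as whole larvae should show. In CPM (counts scaled to library size), the 14 listed summed to 39070 to 42460 in controls and 36820 to 38930 in the morpholino libraries. These ranges did not overlap. By edgeR 1 of the 14, the cartilage gene matn1, was called lower, or 7.14% beside 6.19% of all genes. DESeq2 called 1 higher, the lens gene crygmx, and 2 lower, matn1 and the muscle gene actc1b. The connexin gene gjb8, the candidate for the targeted gene, had 26 counts in all control libraries together and 144 in the morpholino libraries, of which 114 were in morpholino library 1 (adjusted p = 0.288 by edgeR and 0.0269 by DESeq2), too few to check the labels. Without that library its adjusted p was 0.533 by edgeR.

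The genes lie on 5 different chromosomes. On the GRCz11 build, with coordinates as the deposited table gives them, rhcga lies on the plus strand of chromosome 7 from 14291349 to 14302716, and rhcgl1 on the plus strand of chromosome 6 from 36261067 to 36391726. rhcgb lies on the minus strand of chromosome 25 from 8580941 to 8602460, rhbg on the minus strand of chromosome 16 from 29265801 to 29277186, and rhag on the minus strand of chromosome 20 from 14016286 to 14054108. The spans differ widely, from 11367 bases for rhcga to 130659 bases for rhcgl1. In the table, 4 members have 1 row each, and rhcgl1 has 2.

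The 5 genes kept the same order of level in both groups. Levels of different genes are compared on the length-scaled TPM of the deposited table, which corrects for transcript length and library size. In the controls rhag was highest, at 200.8 ± 7.28 TPM (SD, n = 3), followed by rhbg at 126.2 ± 3.58, rhcga at 111.2 ± 4.80, rhcgl1 at 34.3 ± 0.377 and rhcgb at 20.1 ± 1.84. No 2 neighbours in this order overlapped over the control libraries, although rhbg and rhcga were close: the lowest rhbg library stood at 123.6 TPM and the highest rhcga library at 114.9. In the morpholino libraries the means were 181.8 ± 6.74 TPM for rhag, 122.9 ± 10.7 for rhbg, 44.9 ± 2.59 for rhcga, 29.9 ± 1.93 for rhcgl1 and 21.7 ± 0.706 for rhcgb. Neighbours again did not overlap, but rhcga now lay nearer in level to rhcgl1 than to rhbg. The mean of rhbg was 1.13 times that of rhcga in controls and 2.74 times in the morpholino libraries, and the mean of rhcga was 3.24 times that of rhcgl1 in controls and 1.504 times in the morpholino libraries.

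**Figure D1:**
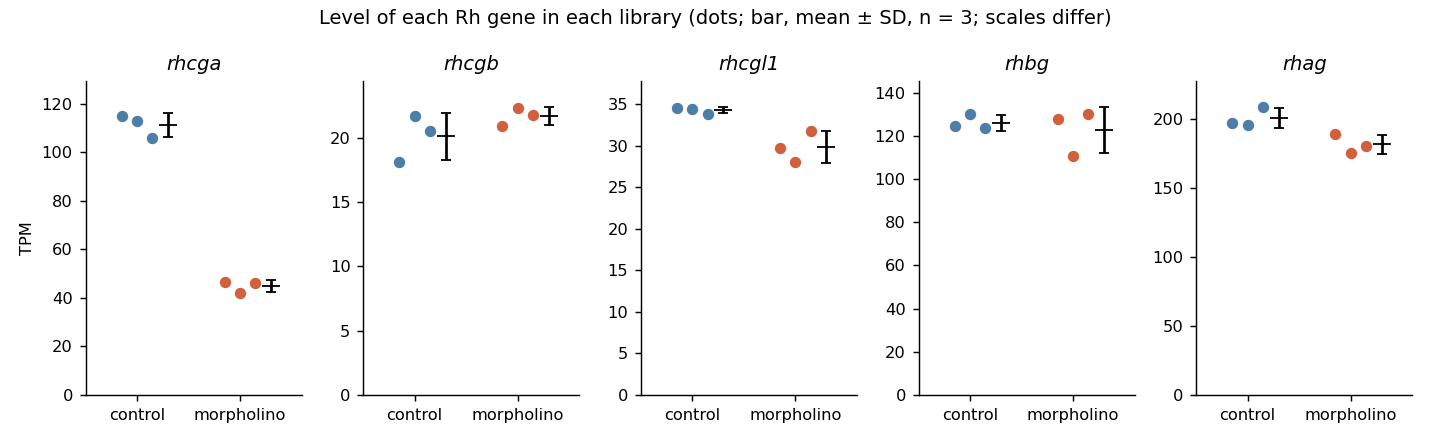
Level in TPM (vertical axis, from 0, a different scale in each panel) of each of the 5 Rh genes in the 3 control libraries (blue) and the 3 morpholino libraries (orange), with the mean ± SD of each group in black. The morpholino libraries of rhcga sit between 41.9 and 46.7 TPM, all below the controls at 105.8 to 114.9, while the 2 groups overlap for rhcgb and rhbg.

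The summed level of the 5 genes was 489.1, 495.7 and 493.0 TPM in control libraries 1 to 3 and 414.1, 378.5 and 410.8 TPM in morpholino libraries 1 to 3. The group sums did not overlap, and the morpholino mean was 81.4% of the control mean. Of the difference of 91.5 TPM between the group means, rhcga made up 66.3 TPM, or 72.5%. Since the set was chosen for the fall of rhcga in this contrast, these sums and shares are descriptions and no test. The share of rhcga in the summed level was 22.6 ± 1.03% in controls and 11.2 ± 0.10% in the morpholino libraries. Without rhcga the sum was 381.4 ± 6.56 TPM in controls and 356.2 ± 17.1 TPM in the morpholino libraries. These sums did not overlap either, at 374.2 to 387.2 TPM in controls and 336.6 to 367.5 TPM in the morpholino libraries. The largest part of this was rhag, with means of 200.8 and 181.8 TPM. The means of rhbg were 126.2 and 122.9 TPM and those of rhcgl1 34.3 and 29.9, while rhcgb was higher, at 20.1 and 21.7. Of all single genes tested, 14.1% did not overlap in CPM with lower morpholino values.

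**Figure D2:**
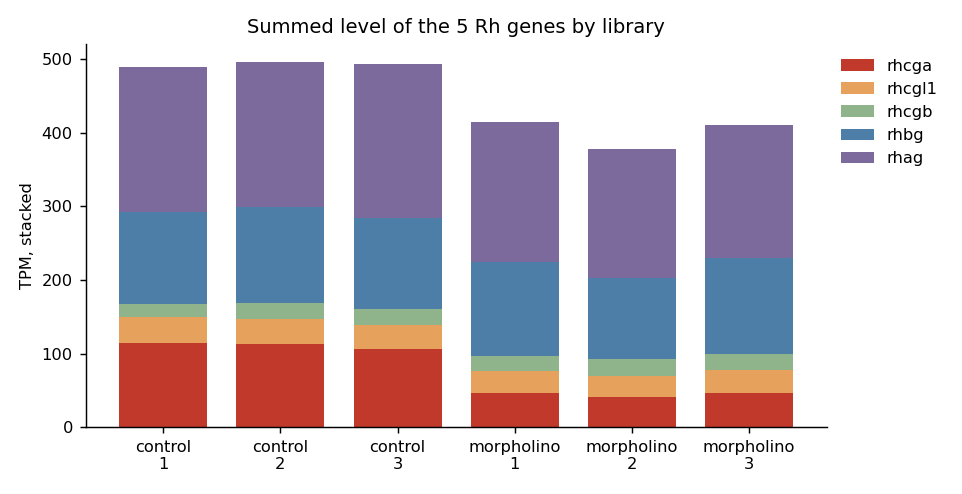
TPM of the 5 Rh genes stacked for each library (vertical axis from 0; 1 bar per library, 3 controls and 3 morpholino). The bars reach 489.1 to 495.7 TPM in controls and between 378.5 and 414.1 TPM in the morpholino libraries. The red segment at the base, rhcga, which was picked for its fall in this contrast, shows the largest drop.

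rhcga, a C-type Rh gene, held 2242, 2459 and 2310 reads in control libraries 1 to 3 and 1106, 1122 and 962 reads in morpholino libraries 1 to 3. Scaled for library size, these were 155.2, 148.2 and 137.2 CPM in controls and 61.1, 58.5 and 60.6 CPM in the morpholino libraries. All 3 morpholino libraries were below all 3 controls, and the gap between the groups was far wider than the range within either. The group means were 146.9 ± 9.06 and 60.1 ± 1.40 CPM, a log2 fold change (morpholino over control) of -1.29 ± 0.07 (SE), or 2.45-fold lower. The spread within groups was small: the coefficient of variation was 6.17% in the controls, where counting error alone gives 2.07%, and 2.34% in the morpholino libraries, where it gives 3.07%. In bulk RNA from whole larvae, fewer cells of a type and less RNA per cell cannot be told apart. Among all genes tested, 197 had a lower log2 fold change than rhcga. Of the 5615 with a mean CPM at least that of rhcgb, the least abundant member by TPM, 8 did. Since rhcga was picked for its fall in this contrast, its rank is a description and no test.

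rhcgb, a second C-type gene, held 26.4, 30.8 and 28.7 CPM in controls and 29.7, 33.7 and 30.9 CPM in the morpholino libraries. The groups overlapped. Its log2 fold change was 0.13 ± 0.09, with a range of 2 SE from -0.04 to 0.31.

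rhcgl1, a further C-type gene described as Rhcg-like, held 49.8, 47.98 and 45.1 CPM in controls and 41.0, 41.3 and 44.1 CPM in the morpholino libraries. All morpholino libraries were below all controls, but the nearest pair, control library 3 and morpholino library 3, lay about as close together as replicates of a group. The log2 fold change was -0.18 ± 0.07, with a range of 2 SE from -0.33 to -0.03. Its reads fall on 2 rows, of which the second has no coordinates. The second row held 136, 176 and 287 reads in control libraries 1 to 3 and 186, 189 and 177 reads in morpholino libraries 1 to 3. Its share of the gene's reads was 18.9%, 22.1% and 37.8% in controls and between 23.9% and 25.3% in the morpholino libraries. Control library 3 stood above the other 5 in this share, and its first row was the lowest at 472 reads, while the sum of both rows in that library, 759, lay within the range of the other libraries (700.0 to 796).

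**Figure D3:**
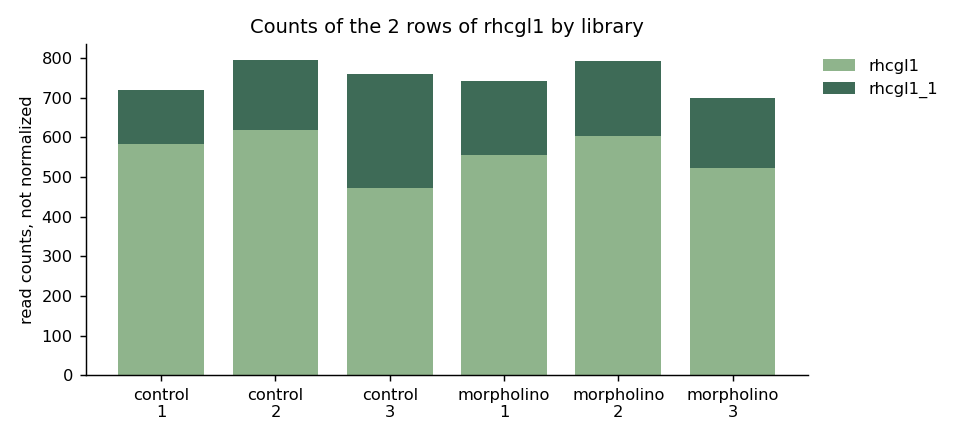
Read counts, not normalized (vertical axis from 0), of the 2 rows of rhcgl1 stacked for each of the 6 libraries. The second row (dark) holds 287 reads in control library 3 and 136 to 189 in the other 5.

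rhbg, the B-type gene, had the most reads of the family, with 310.4, 315.2 and 295.7 CPM in controls and 308.7, 284.4 and 315.7 CPM in the morpholino libraries. The control range lay inside the morpholino range. The log2 fold change was -0.02 ± 0.07, with a range of 2 SE from -0.15 to 0.11.

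rhag, the red cell type gene, held 217.3, 210.1 and 221.5 CPM in controls and 202.2, 200.1 and 194.2 CPM in the morpholino libraries. The morpholino libraries were all below the controls, but the lowest control and the highest morpholino library lay closer together than the lowest and the highest control. The group means were 216.3 ± 5.76 and 198.8 ± 4.11 CPM, a log2 fold change of -0.12 ± 0.06.

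In all, 1 of 5 Rh genes, rhcga, was among the genes called lower and none among those called higher, where 3.31% of all genes tested were called lower and 2.88% higher. The groups did not overlap for 3 of 5, all lower in the morpholino libraries, where 27.8% of all genes tested did not overlap in either direction and 14.1% did not overlap with lower morpholino values. Since the set was chosen from this contrast, nothing is read from these counts. The median log2 fold change of the 5 was -0.12, beside 0.01 for all genes tested. Reads were not told apart among related Rh genes beyond the authors' own assignment. With the counts of rhcga, rhcgb and rhcgl1 summed into 1 gene, the log2 fold change was -0.74 ± 0.06.

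The table names further Rh genes that are not members of the set. rh50, described as Rh50-like, stood at 15.8 ± 2.74 CPM in controls and 12.5 ± 1.02 CPM in the morpholino libraries (log2 fold change -0.34 ± 0.14, adjusted p = 0.169, edgeR). rhd, a relative of the Rh blood group antigen genes, was near the limit of detection at 2.71 ± 0.709 and 2.23 ± 0.317 CPM (-0.28 ± 0.26, adjusted p = 0.588). Neither passed the test.

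The genes listed for the H+-ATPase-rich ionocyte did not pass the test. Whether each of them, slc4a4b and cahz included, is particular to these cells was not tested. Of 13 tested by edgeR's quasi-likelihood test none was called in either direction, beside 6.19% of all genes, and DESeq2 called none. At an unadjusted p under 0.05 in edgeR there were 1 higher and 4 lower. The share of all genes at that unadjusted threshold was not counted. Nothing is therefore read from such counts, here or for the lists and neighbouring genes below. The median log2 fold change of these 13 genes was -0.04, and their group means in the morpholino libraries lay between 68.4% and 133.8% of the control mean, where rhcga lay at 40.9 ± 0.956%. ca2, a carbonic anhydrase that supplies the protons, held 110.4, 118.0 and 112.5 CPM in controls and 101.3, 92.4 and 105.5 CPM in the morpholino libraries (-0.19 ± 0.07, adjusted p = 0.132). ca15a, a membrane carbonic anhydrase, stood at 26.8 ± 2.30 and 22.8 ± 0.422 CPM (-0.24 ± 0.09, adjusted p = 0.147). For both genes the morpholino libraries were all below the controls, by a small margin. Over the 13 genes tested, the groups did not overlap for 3 that were lower and for 1, slc9a3.2, that was higher. That is 30.8%, beside 27.8% of all genes. slc9a3.2, the sodium/proton exchanger of these cells, had the highest log2 fold change of the list, 0.42 ± 0.18, from 4.21 ± 0.412 to 5.63 ± 0.819 CPM (adjusted p = 0.210). slc4a1b, an anion exchanger, stood at 11.4 ± 1.36 and 12.7 ± 1.22 CPM (0.15 ± 0.13, adjusted p = 0.547).

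Of the transcription factor genes in the list, gcm2 and foxi3a had nearly equal means in both groups. gcm2 stood at 16.4 ± 1.17 CPM in controls and 15.9 ± 0.790 CPM in the morpholino libraries (log2 fold change -0.04 ± 0.10, adjusted p = 0.871). foxi3a stood at 17.0 ± 0.941 and 17.97 ± 0.903 CPM (0.08 ± 0.10, adjusted p = 0.689). tbx2a varied widely, with morpholino libraries at 127.2%, 76.8% and 158.3% of the control mean (0.27 ± 0.29), and esrra had a log2 fold change of -0.12 ± 0.08. foxi3b, related to foxi3a, had 3 reads in all control libraries together and 8 in all morpholino libraries, and was not tested. atp6v1aa, a proton pump subunit, could not be compared, with 8.72, 59.5 and 22.3 CPM in control libraries 1 to 3 and 35.5, 12.9 and 14.4 CPM in morpholino libraries 1 to 3; nearly all of its reads were on its second row. atp6v1ab, also a proton pump subunit gene of the list, had a log2 fold change of 0.30 ± 0.19 and was not called. Its morpholino libraries 1 to 3 stood at 162.0%, 109.9% and 98.3% of the control mean. slc4a4b, a bicarbonate cotransporter gene, was picked with its values in view, and its place in these cells was not tested. It showed the lowest log2 fold change of the list, -0.55 ± 0.21 (adjusted p = 0.183). Without control library 1 it was -0.73 and passed the test (adjusted p = 0.0288). The row of its plain symbol alone gave -0.12 ± 0.19, and its second row, which held more reads in both groups, gave -0.83 ± 0.37. Neither row passed alone.

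**Figure D4:**
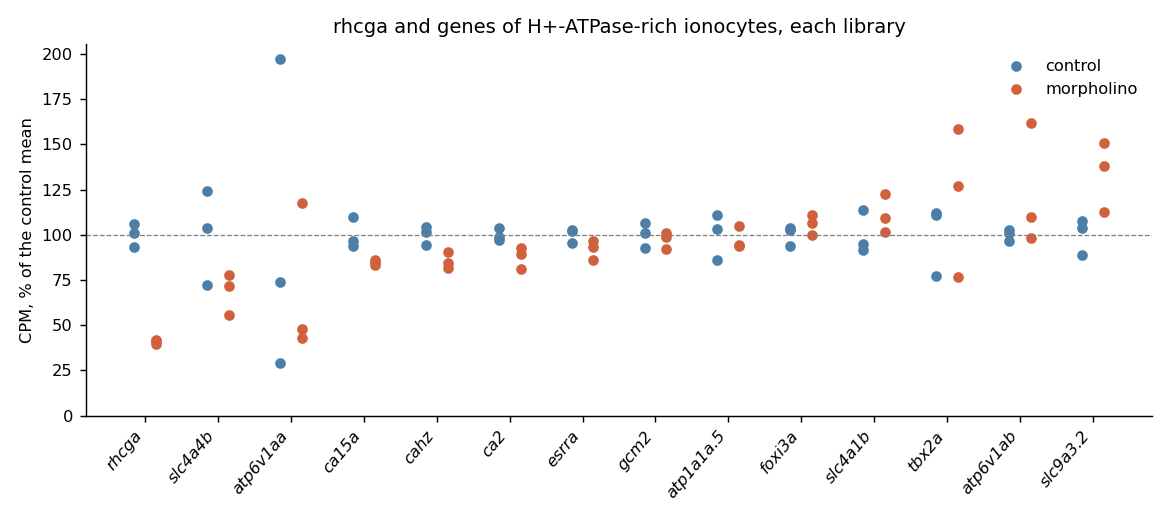
CPM as a percentage of the control mean (vertical axis from 0) for rhcga and the 13 tested genes listed for H+-ATPase-rich ionocytes (horizontal axis, ordered by the morpholino mean after rhcga), with the 3 control libraries in blue and the 3 morpholino libraries in orange. The morpholino libraries of rhcga, which was picked for its fall in this contrast, lie between 39.8% and 41.6%. No list gene has all 3 of its morpholino libraries so low.

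Of 25 genes of the calcium-, chloride- and potassium-handling ionocytes tested, 2 rose and 1 fell, beside 2.88% and 3.31% of all genes. igfbp5a, a growth factor binding protein gene of calcium-handling ionocytes, rose from 5.64 ± 0.891 to 18.6 ± 1.97 CPM (1.72 ± 0.14, adjusted p = 1.22e-04, edgeR), with both of its rows higher. clcn2c, a chloride channel gene of the sodium- and chloride-handling ionocyte, fell from 29.4 ± 3.63 to 17.1 ± 1.19 CPM (-0.78 ± 0.11, adjusted p = 0.00224). kcnj1a.2, one of a tandem group of potassium channel genes that can share reads, rose by 0.70 ± 0.19 on the log2 scale (adjusted p = 0.0486). It did not pass with any 1 of the 6 libraries left out (adjusted p of 0.0556 to 0.156) or in DESeq2 (0.119).

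Markers of other cells in which Rh channels or ionocytes lie did not all stay level. Of 26 keratinocyte genes 6 rose and none fell in edgeR's test, whereas DESeq2 called 6 higher and 3 lower. The 3 lower were krt18a.1, cyt1l and col17a1a. Of those called higher, grhl1 was called by edgeR alone and epcam by DESeq2 alone. By edgeR 2.88% of all genes were called higher and 3.31% lower. The summed level of the list was 21640 to 22400 CPM in controls and 23460 to 27920 CPM in the morpholino libraries. krt17, a keratin gene, rose from 1292 ± 108 to 2385 ± 183 CPM (0.88 ± 0.08, adjusted p = 2.52e-04). krt8, another keratin gene, rose by 0.34 ± 0.07 as a sum (adjusted p = 0.0167), while its rows moved apart, by 0.82 and -0.94. grhl3, an epidermal transcription factor gene, rose by 0.55 ± 0.11 (adjusted p = 0.0162), with the rise on its second row. Without control library 1, control library 2 or morpholino library 1, 2 keratinocyte genes rose in place of 6, and the calls of krt8 and grhl3 were lost.

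Of 20 pronephros genes, the larval kidney, none was called in edgeR, beside 6.19% of all genes, so little can be read from this count. In edgeR 2 higher and 2 lower had an unadjusted p under 0.05, and DESeq2 called 1, trpm7. The summed level of this list was 686.0 to 744.3 CPM in controls and 715.2 to 759.3 CPM in the morpholino libraries. cdh17 and slc5a1, the most abundant of the list, had log2 fold changes of 0.07 ± 0.07 and -0.02 ± 0.10. The summed level of the 14 genes listed for the H+-ATPase-rich ionocyte was 376.3 to 449.7 CPM in controls and 352.4 to 410.1 CPM in the morpholino libraries. The part of keratinocyte and pronephros cells in the difference of rhcga was not tested.

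Red cell genes were set beside rhag. Of 19 tested, 1 rose and none fell, or 5.26% beside 6.19% of all genes. hbbe1.1, an embryonic globin gene with close tandem relatives that can share its reads, rose from 214.8 ± 27.2 to 276.9 ± 17.6 CPM (0.37 ± 0.09, adjusted p = 0.0436). It kept this call when control library 1 was left out but not when any other library was (adjusted p of 0.0758 to 0.143). The other globin genes of the list that were tested were not called and went in both directions. hbae1.1 had the lowest log2 fold change of the list, -0.74 ± 0.24. hbae3 was at -0.08 ± 0.07, hbbe2 at 0.09 ± 0.07 and hbae5 at 0.69 ± 0.42. slc4a1a, the red cell anion exchanger gene, stood at 39.8 ± 6.79 and 31.9 ± 1.33 CPM (-0.32 ± 0.11, adjusted p = 0.127), and it passed without control library 1 (-0.43, adjusted p = 0.0416). alas2, the first enzyme of heme synthesis in red cells, varied from 1.66 to 11.3 CPM in controls and from 0.718 to 8.55 CPM in the morpholino libraries. gata1a, the red cell transcription factor gene, held 15 and 16 reads per group and was not tested. The summed level of the list was 1104 to 1249 CPM in controls and 1165 to 1278 CPM in the morpholino libraries, and these ranges overlapped. Of the 19 genes tested, the groups did not overlap for 4 that were lower, slc4a1a among them, and for 3 that were higher. Of all genes tested, 14.1% were lower and 13.7% higher without overlap.

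Genes that make, fix or dispose of ammonia were counted next. Of 45 tested, 3 rose and 1 fell, or 8.89% beside 6.19% of all genes, with a median log2 fold change of 0.06. arg2, which encodes a mitochondrial arginase, rose from 47.96 ± 3.55 to 65.8 ± 3.803 CPM (0.46 ± 0.08, adjusted p = 0.00709). asns, which encodes asparagine synthetase, fell from 31.4 ± 3.83 to 21.3 ± 1.40 CPM (-0.56 ± 0.10, adjusted p = 0.00993). ampd1, the muscle AMP deaminase gene, whose product releases ammonia, rose from 819.4 ± 34.7 to 1013 ± 87.1 CPM (0.31 ± 0.08, adjusted p = 0.0368). The third gene that rose, named because it completes the count, was ada, which encodes adenosine deaminase (0.32 ± 0.08, adjusted p = 0.0434). Neither ampd1 nor ada passed when control library 2, control library 3, morpholino library 1 or morpholino library 3 was left out, and arg2 was then the gene that rose; ampd1 also missed without control library 1 (adjusted p = 0.0628).

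Genes of the main ammonia-fixing enzymes did not pass. glula, a glutamine synthetase gene, stood at 329.3 ± 7.85 and 307.0 ± 4.16 CPM (-0.10 ± 0.06, adjusted p = 0.365), and its relative glulb at 5.78 ± 0.516 and 3.95 ± 0.423 CPM (-0.55 ± 0.17, adjusted p = 0.0941). glud1b, the abundant glutamate dehydrogenase gene, stood at 1104 ± 51.2 and 1157 ± 51.3 CPM (0.07 ± 0.07, adjusted p = 0.620). glud1a, its relative, was variable, with 70.6 ± 23.0 and 34.5 ± 15.0 CPM (-1.03 ± 0.47, adjusted p = 0.317). For glula, glulb and glud1a the morpholino libraries were all below the controls, while the groups overlapped for glud1b. Over the 45 genes tested, the groups did not overlap for 9 that were higher and 9 that were lower. That is 40.0%, beside 27.8% of all genes. The urea cycle gene cps1, at 4.05 ± 0.748 and 2.80 ± 1.17 CPM, and the urea transporter gene slc14a2, at 3.46 ± 0.884 and 2.99 ± 0.443 CPM, were low in both groups (adjusted p of 0.332 and 0.676).

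Among 18 aquaporin, urea transporter and other Rh names tested, 1 rose and 1 fell, or 11.1% beside 6.19% of all genes. Some aquaporins also pass ammonia or urea. aqp8a.2 rose from 36.9 ± 2.83 to 54.0 ± 1.15 CPM (0.55 ± 0.08, adjusted p = 0.00268), but its rows moved apart, by 1.15 and -1.94. aqp8b fell from 7.56 ± 0.997 to 4.19 ± 0.565 CPM (-0.85 ± 0.18, adjusted p = 0.0183). Its adjusted p was 0.0502 without control library 1, 0.0769 without control library 3 and 0.0513 without morpholino library 2. Of 16 carbonic anhydrase genes none was called in edgeR or DESeq2, with 1 higher and 3 lower at an unadjusted p under 0.05. The most abundant, ca2 and cahz, had log2 fold changes of -0.19 ± 0.07 and -0.23 ± 0.07. Both are also in the ionocyte list. cahz was not placed in the red cell list, and the part of red cells in its level was not tested. Of 12 sodium/proton exchange genes none was called in edgeR or DESeq2, with 2 higher and 1 lower at an unadjusted p under 0.05. nherf1a and slc9a8, the most abundant of these, had log2 fold changes of 0.08 ± 0.10 and 0.12 ± 0.11.

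**Figure D5:**
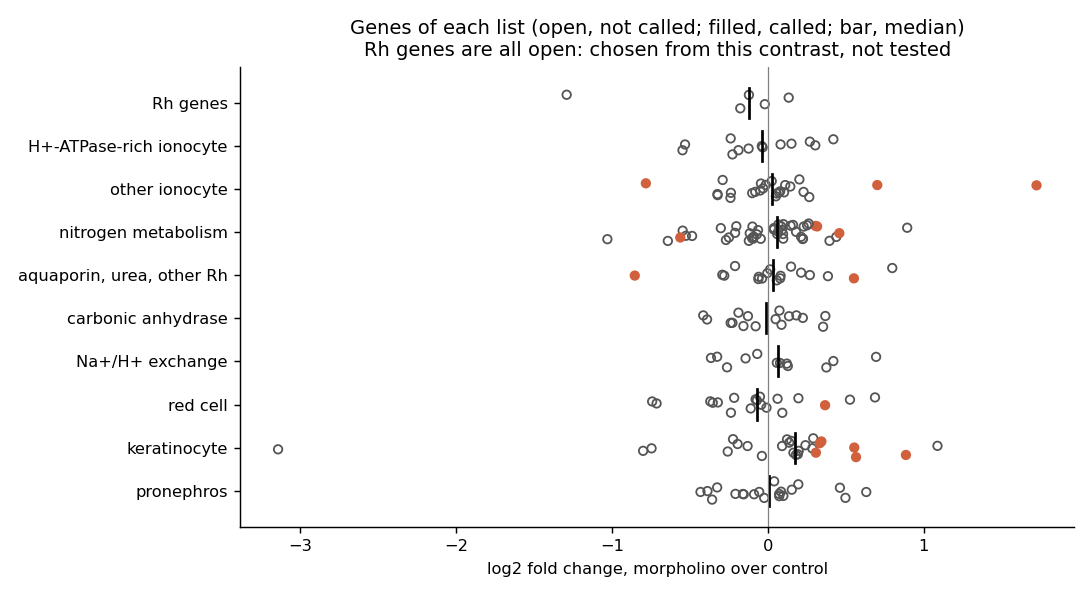
Log2 fold change, morpholino over control (horizontal axis), of each tested gene in each list (rows), with genes called by edgeR filled and the list median as a bar. The Rh genes are drawn open as they were chosen from this contrast. Among them rhcga, at -1.29, is lower than every gene of the ionocyte lists. The keratinocyte gene krt18a.1 lies lower still, at -3.14 ± 1.15, and was called by DESeq2 but not by edgeR.

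The genes next to each member on its chromosome were compared as a description of the neighbourhood, by a rule chosen after the data were known: the 2 nearest tested genes on each side. None of the 20 was called in edgeR or DESeq2, beside 6.19% of all genes in edgeR, and 4 had an unadjusted p under 0.05. The groups did not overlap for 3 that were higher, furina among them, and for 3 that were lower. Of all genes tested, 13.7% were higher and 14.1% lower without overlap. Around rhcga, fes ends 25.1 kb before the gene and si:ch211-132d3.4 starts 51.2 kb after it. Their log2 fold changes were 0.13 ± 0.16 and -0.01 ± 0.10, and those of the next genes out, furina and kif7, were 0.31 ± 0.11 (adjusted p = 0.143) and -0.05 ± 0.10.

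The genes whose levels ran most like rhcga over the 6 libraries were ranked by Pearson's r of log2(CPM + 0.5), among 12120 genes with a mean of at least 10 CPM. With 3 libraries in each of 2 groups this mostly ranks genes by a clean group difference, and 261 genes had r above 0.95. The closest were wu:fc22b06 (r = 0.998), si:dkey-4e7.3 (0.997), LOC101882272 (0.997), nsfl1c (0.996) and hsd17b10 (0.996). All 5 were lower in the morpholino libraries, with log2 fold changes between -1.23 (LOC101882272, 30.0 to 12.8 CPM) and -0.30 (hsd17b10). The first 3 carry no descriptive name in the table, nsfl1c encodes a cofactor of the p97 ATPase, and hsd17b10 a mitochondrial dehydrogenase. Of the other members, r with rhcga was 0.89 for rhag, 0.89 for rhcgl1, 0.25 for rhbg and -0.66 for rhcgb. After each group's mean was subtracted, r was -0.39 for rhag, 0.79 for rhcgl1, 0.68 for rhbg and -0.52 for rhcgb. These rest on the same 6 libraries and carry no test.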

How the data were processed

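Poly-A RNA was sequenced from 3 control and 3 morpholino libraries, grouped by title. The deposited table gives whole-number read counts, FPKM and TPM for 53709 rows; TPM and FPKM were made by the authors from the counts by scaling for row length and library. HISAT2, RSEM, StringTie 1.3.1 and the GRCz11 build appear in the submitters' processing notes, with no role or order. The sources used here do not say whether strand was used in counting.

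The 16024 rows named as another row plus a numeric suffix were summed into that gene. The main test was the quasi-likelihood test of edgeR 4.0.16, run in R 4.3.3 (filterByExpr with min.count 10 and min.total.count 15, TMM, robust fit, no covariate, Benjamini-Hochberg adjustment over 22247 genes, threshold 0.05). Adjusted p-values are from edgeR except where DESeq2 is named. Each SE is the log2 fold change divided by the root of the test's F statistic. CPM uses TMM-scaled library sizes. DESeq2 1.42.0 was an alternative. The pipeline was tested on simulated data. Members and lists were chosen with earlier results of these data known. Named are the members, up to 3 called genes of each list (or the 2 most abundant), fixed partner genes and the 5 genes most like rhcga. Symbols were matched directly or by RefSeq synonyms (GRCz12tu, names only). The gene identifiers of the table equal RefSeq's for 1 of 5 members, so genes are given by symbol and position. No protein or promoter sequence was used here.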

Additional observations from a re-analysis of the deposited data

How the results depend on the processing

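The log2 fold changes of the 5 Rh genes moved by less than the spread between replicates under other scaling factors, count filters and DESeq2. The same held for the replicate block and for rows as deposited. For rhcgl1, rows as deposited took its first row alone, at -0.15 ± 0.12, and its second row gave -0.25 ± 0.21. Leaving out each library in turn gave -1.34 to -1.25 for rhcga, 0.08 to 0.19 for rhcgb, -0.21 to -0.15 for rhcgl1, -0.05 to 0.02 for rhbg and -0.14 to -0.10 for rhag. With rhcga, rhcgb and rhcgl1 summed, an alternative chosen after seeing the data, the value was -0.74. The same 5 genes were most like rhcga under both alternatives of offset and minimum level, and its share of the summed level was the same in FPKM, which differs from TPM by 1 factor per library.

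Leaving out 1 library changed the number of genes called from 1378 to between 579 and 1070. No sign was seen that the replicate numbers pair the samples: deviations of same-numbered libraries correlated at -0.03, 0.06 and 0.01, and not every library correlated best with its own number. With so few libraries the check cannot exclude a shared clutch or batch. With the number as a block 1362 genes were called. Upper quartile factors gave 1343 calls of which 659 were lower, RLE factors 1383, no filter 1596, at least 50 counts 1218, DESeq2 1388 and rows as deposited 2049.

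List counts rest on few genes. Without 1 library the H+-ATPase-rich list had 0 to 1 lower; other ionocytes 1 higher throughout; nitrogen metabolism 1 to 3 higher and 1 to 2 lower; aquaporins and related 0 to 1 lower; sodium/proton exchange 0 to 1 higher and 0 to 1 lower; red cells 0 to 1 higher and 0 to 1 lower; keratinocytes 2 to 6 higher and 0 to 1 lower; pronephros 0 to 1 higher; whole larva markers 1 to 2 lower. DESeq2 gave 1 higher for other ionocytes, 2 lower for nitrogen metabolism, 3 lower for keratinocytes, and 1 higher for pronephros; for whole larva markers it gave 1 higher and 2 lower. The replicate block gave 1 higher for other ionocytes, where kcnj1a.2 did not pass (adjusted p = 0.0613), 2 higher for nitrogen metabolism, where ampd1 did not pass (0.0672), 2 lower for nitrogen metabolism and 1 higher for pronephros. Rows as deposited gave 2 lower for nitrogen metabolism, 3 higher for aquaporins and related, 2 higher for red cells and 1 higher for whole larva markers. No filter gave 1 lower for sodium/proton exchange and 1 lower for pronephros, as did RLE factors for pronephros. Signs reversed for genes that were near 0 or variable: leaving out 1 library gave -0.030 (without morpholino library 2) to 0.16 for nherf1a, -0.11 to 0.083 for slc5a1 (0.083 without control library 1 and 0.036 without morpholino library 3), and, with the highest value without control library 2, -1.15 to 0.42 for atp6v1aa and -0.094 to 0.0082 for gcm2; and grhl3 reversed (-0.12 in its first row alone). Beyond fewer samples or rows, the cause of these changes was not tested. Depth limits foxi3b, gata1a and gjb8, with under 50 counts in the controls.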
